A study of Homo sapiens with 18 samples.

Results

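ERK output and feedback genes are transcripts that rise when the RAS-RAF-MEK-ERK kinase cascade is active, and most of their products in turn restrain the cascade. The 10 genes described here are DUSP4, DUSP5, DUSP6, SPRY2, SPRY4, SPRED1, SPRED2, ETV4, ETV5 and PHLDA1, picked by symbol from the deposited expression table. Each symbol matched 1 of the 60483 genes listed there, and all 10 had a mean of at least 1 TPM (the length-scaled share of all transcripts, set to the same total in every sample), which placed them among the 13789 genes tested.

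OVCAR5 is an established human cell line, labelled as high grade serous ovarian adenocarcinoma of wild-type genotype. Every sample was kept for 24 h in medium with 5% bovine serum albumin stripped of free fatty acids. The 18 samples made up 6 conditions of 3 replicates each: DMSO alone, 1 µM CAY10566, 50 µM stearate with DMSO, 50 µM stearate with CAY10566, 50 µM oleate with DMSO, and 50 µM oleate with CAY10566. CAY10566 blocks SCD1, the desaturase that turns stearate (saturated) into oleate (monounsaturated), and DMSO is the vehicle. For the fatty acid comparisons the DMSO and CAY10566 samples were pooled, giving 6 control, 6 stearate and 6 oleate samples.

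The cascade carries signals from growth factor receptors through RAS, RAF and MEK to the ERK kinases, which enter the nucleus and switch on early response genes. Among these are dual-specificity phosphatases that remove the activating phosphates from MAP kinases, Sprouty and SPRED proteins that act upstream on RAS and RAF, ETS transcription factors of the PEA3 group that pass the signal on to further genes, and PHLDA1. In tumor cells with an active RAS pathway, the summed level of such transcripts is widely used as a readout of pathway output.

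Without fatty acid, DUSP5 was the most abundant of the 10 transcripts, at 389.8 ± 6.71 TPM (SD, n = 6), followed by DUSP6 at 200.2 ± 11.2 and PHLDA1 at 79.8 ± 2.42 TPM. TPM is scaled by transcript length, so levels can be set side by side between genes. ETV5 (64.0 ± 3.69 TPM), ETV4 (61.8 ± 2.62) and SPRY4 (58.2 ± 5.62) came next, and the ranges of neighbors in this order overlapped. SPRED2 stood at 24.7 ± 1.79, DUSP4 at 15.2 ± 1.11, SPRY2 at 12.2 ± 0.82 and SPRED1 at 8.72 ± 2.12 TPM, the last pair again with overlapping ranges. SPRED1 was thus the lowest of the 10 and, for its level, the most variable among the controls.

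**Figure D1:**
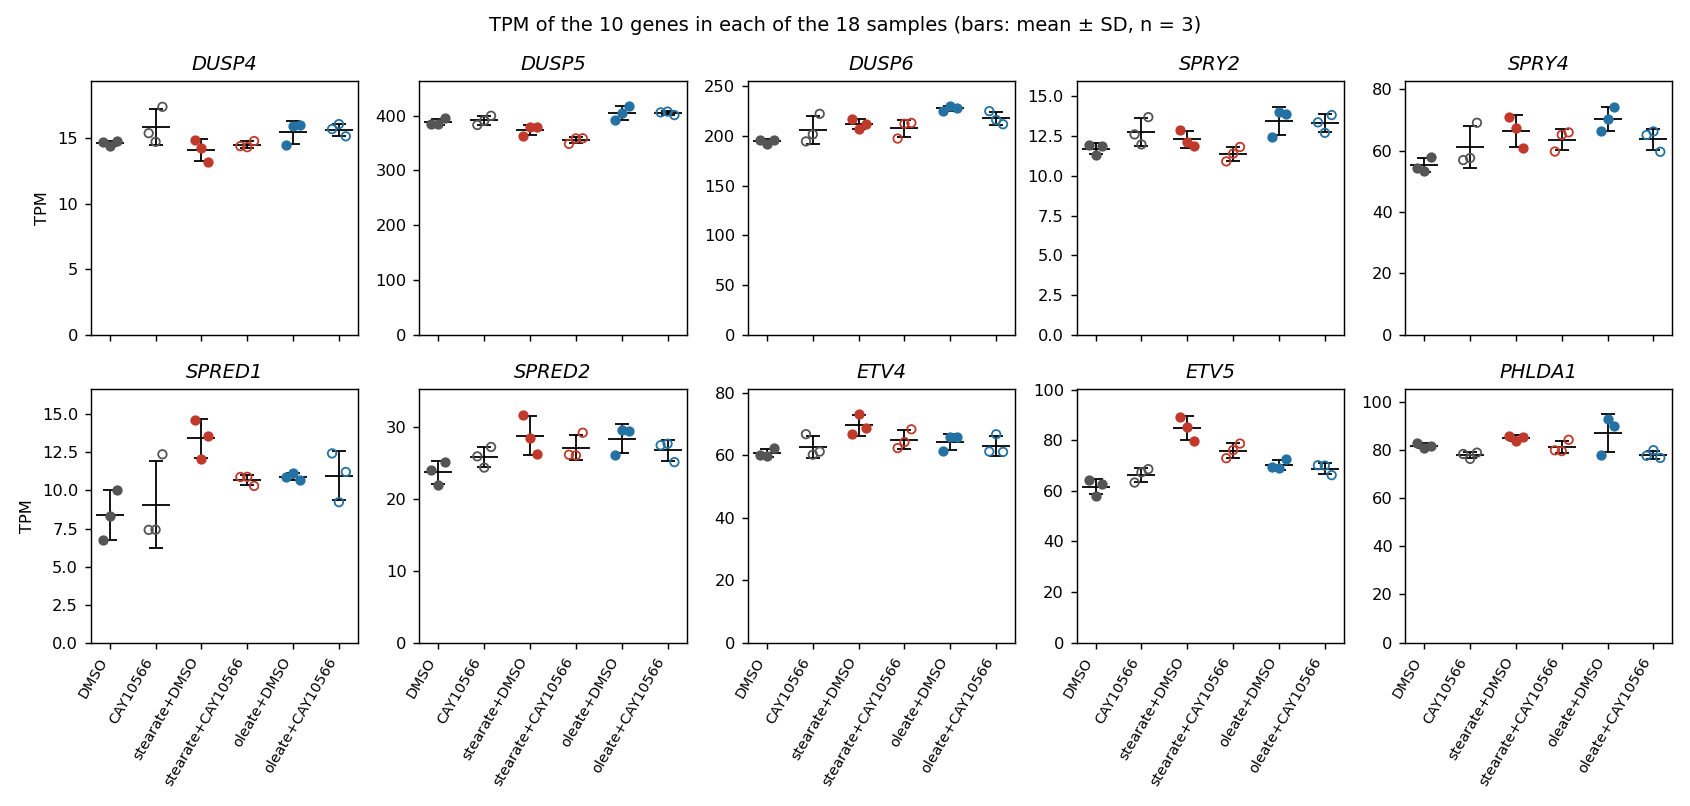
TPM (vertical axis, from 0) of each of the 10 genes in the 6 conditions (horizontal axis). Each point is 1 sample, bars show the mean and SD of 3 replicates, and filled points are DMSO samples while open points are CAY10566 samples; the lowest stearate sample of ETV5 (72.83 TPM) lies above the highest sample without stearate (72.36 TPM).

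Promoter windows from RefSeq (GRCh38.p14) covered 6 of the 10 genes, in 9 windows; DUSP4, DUSP5, ETV4 and ETV5 had none. Those of DUSP6, the only member window with the CIC motif, and of SPRED1, which had the largest log2 difference of the 10 for stearate against control, are shown, each as the 250 bases before the annotated start, 5′ to 3′ on the strand of the gene. DUSP6, at chr12:89347235-89352501 on the minus strand, encodes the cytoplasmic phosphatase that acts on ERK, and the capitals in its window (chr12:89352502-89352751) mark an octamer of the kind bound by CIC, a repressor of PEA3 and DUSP genes that ERK signaling relieves. SPRED1, at chr15:38252836-38357249 on the plus strand, encodes a membrane protein that brings neurofibromin to RAS, and its window (chr15:38252586-38252835) has no capitals because none of the motifs searched was found.
DUSP6: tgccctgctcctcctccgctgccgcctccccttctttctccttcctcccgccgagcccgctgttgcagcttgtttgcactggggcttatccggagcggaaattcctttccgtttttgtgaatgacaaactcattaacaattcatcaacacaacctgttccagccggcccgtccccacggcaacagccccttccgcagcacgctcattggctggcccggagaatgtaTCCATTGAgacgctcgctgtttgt
SPRED1: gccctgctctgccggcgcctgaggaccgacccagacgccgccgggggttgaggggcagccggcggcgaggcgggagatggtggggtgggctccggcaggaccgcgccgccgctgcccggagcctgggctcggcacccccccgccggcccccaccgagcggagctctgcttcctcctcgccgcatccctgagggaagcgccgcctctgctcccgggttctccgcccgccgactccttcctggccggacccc

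Each motif was searched on both strands of windows of 300 bases, which add the first 50 bases after the start. The CIC octamer (TGAATGAA, TGAATGGA, TCAATGAA or TCAATGGA) was in 1 of the 9 member windows, that of DUSP6, which held it 24 to 17 bases before the start and again just after it, against 3.77% of all 35116 windows. The ETS core (CCGGAA) was in 2 member windows, those of PHLDA1 and SPRY2, against 17.2% of all windows. The AP-1 site (TGANTCA) was in 1, an alternative start of SPRED2, against 7.71% of all windows. The CRE (TGACGTCA) and the serum response element CArG box were in 0 of the 9, against 1.85% and 1.29%. These matches describe letters in the windows and no binding was measured.

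The third CAY10566 replicate without fatty acid stood apart from the other 5 controls. It was the highest control for 8 of the 10 genes, its median deviation over the 10 was 0.17 on the log2 scale, and the second DMSO replicate was the lowest for 7. On the first principal component of all tested genes, which held 16.4% of the variance, that CAY10566 sample scored 14.2 while the other controls scored -19.9 to -12.2 and the oleate samples 3.07 to 20.4. It thus lay among the oleate samples on this component, and whether its label is right was not tested. It is kept under its label in every comparison with the controls, and values without it follow the comparisons. Across the 18 samples, which share conditions and their processing, this score had a Pearson r of 0.94 with DUSP6, 0.89 with SPRY4, 0.80 with SPRY2 and 0.75 with SPRED2 (log2 of TPM + 1; Spearman 0.95, 0.87, 0.77 and 0.78). The r was 0.34 for ETV5, 0.46 for DUSP5, 0.53 for SPRED1, 0.64 for DUSP4, 0.32 for PHLDA1 and 0.19 for ETV4. Mitochondrially encoded transcripts took 4.30 to 7.31% of TPM per sample. Other samples also stood at the edge of their fatty acid group. Among the stearate samples the first with DMSO was the highest for 8 of the 10 genes, with a median log2 deviation of 0.10. The first stearate sample with CAY10566 was the lowest for 6, as was the third oleate sample with CAY10566 in its group.

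**Figure D2:**
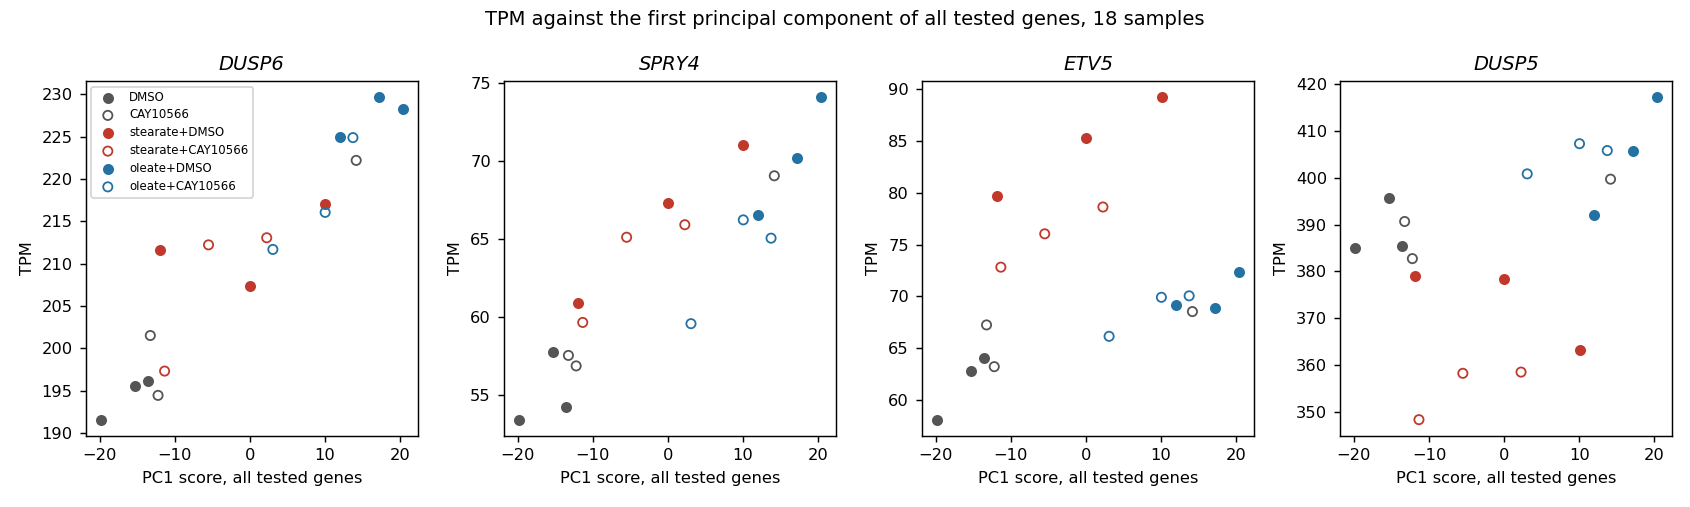
TPM (vertical axes, not starting at 0) of DUSP6, SPRY4, ETV5 and DUSP5 against the score of each of the 18 samples on the first principal component of all tested genes (horizontal axes). DUSP6 and SPRY4 climb along the score, with the third CAY10566 control among the oleate samples, whereas for ETV5 the stearate samples and for DUSP5 the stearate samples form layers of their own above and below the others.

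Stearate was compared with control to ask whether the saturated fatty acid moves ERK output. The feedback genes split: SPRED1 and ETV5 rose and DUSP5 fell. SPRED2 and ETV4 rose by less, near the edge of the test, and the other 5 genes did not pass it. Differences are given as log2 of TPM + 1, from limma fitted to all tested genes with Benjamini-Hochberg adjustment, and a gene was called when its false discovery rate (FDR) was below 0.05 and its log2 difference was over 0.322 in size, the log2 of the fold threshold the study used. By this rule 1 of the 10 genes was called, SPRED1, against a background of 5.35% of tested genes. By the FDR alone 4 rose, against 13.5% of all tested genes, and 1 fell, against 5.97%.

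Of the 3 dual-specificity phosphatases, DUSP5 passed the test and DUSP4 and DUSP6 did not. DUSP5 (chr10:110497907-110511533, plus strand), the nuclear phosphatase specific to ERK, stood at 385.33, 384.99 and 395.57 TPM in the DMSO controls and at 382.74, 390.66 and 399.69 TPM in the CAY10566 controls. With stearate it was at 363.14, 378.44 and 378.95 TPM with DMSO and at 348.38, 358.27 and 358.53 TPM with CAY10566. All 6 stearate samples lay below all 6 controls, and DUSP5 fell by 0.10 on the log2 scale (SE 0.0231, limma adjusted p = 0.00635; exact two-sided permutation p = 0.00216, the smallest that 6 against 6 samples allow). The difference amounts to -6.57%, small beside its level yet larger than the spread among replicates. DUSP6 had a lowest, median and highest value of 191.58, 195.85 and 222.21 TPM in the controls and of 197.32, 211.93 and 217.03 TPM with stearate, with overlapping ranges and a log2 difference of 0.07 (limma adjusted p = 0.171). DUSP4, a nuclear phosphatase of ERK and JNK, had means of 15.2 and 14.3 TPM and a log2 difference of -0.08 (95% interval -0.18 to 0.02, limma adjusted p = 0.231).

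Of the Sprouty and SPRED inhibitors, both SPRED genes rose with TPM as deposited, and SPRED1 also after samples were rescaled to a common median. SPRED1 was at 6.77, 8.29 and 10.05 TPM in the DMSO controls and at 7.41, 7.42 and 12.38 TPM in the CAY10566 controls. Stearate samples reached 14.67, 12.1 and 13.57 TPM with DMSO and 10.89, 10.9 and 10.3 TPM with CAY10566. Only the third CAY10566 control reached into the range of the stearate samples, and the log2 difference was 0.44 (95% interval 0.20 to 0.69, limma adjusted p = 0.0116; exact two-sided permutation p = 0.0173), or 36.0% of TPM + 1. SPRED2, which acts on RAS in the same way, ranged from 21.97 to 27.2 TPM (median 24.7) in the controls and from 26.03 to 31.58 TPM (median 27.4) with stearate. It rose by 0.17 on the log2 scale (SE 0.0575, limma adjusted p = 0.0451), with 3 of 6 stearate samples above every control. With single libraries left out SPRED2 passed the FDR in 9 of 18 fits. The Sprouty genes gave no call: SPRY4, an inhibitor between receptors and RAF, had a log2 difference of 0.16 (95% interval 0.03 to 0.29, limma adjusted p = 0.0673), and SPRY2, which also binds the ubiquitin ligase CBL, one of -0.04 (-0.15 to 0.06, limma adjusted p = 0.575).

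Both PEA3 factors rose with stearate with TPM as deposited, ETV5 by more, while ETV4 no longer passed after rescaling. ETV5 (chr3:186046314-186110318, minus strand) was at 64.06, 58.1 and 62.82 TPM in the DMSO controls and at 63.22, 67.25 and 68.54 TPM in the CAY10566 controls. With stearate it was at 89.25, 85.27 and 79.73 TPM with DMSO and at 72.83, 76.05 and 78.64 TPM with CAY10566. Every stearate sample lay above every control, and within stearate every DMSO sample lay above every CAY10566 sample. The log2 difference from control was 0.32 (SE 0.0461, 95% interval 0.22 to 0.42, limma adjusted p = 9.88e-05; exact two-sided permutation p = 0.00216, the smallest possible). At 0.321 it fell just short of the fold threshold and was therefore not among the calls, while a smaller pseudocount of 0.1 put it past. ETV4 ranged from 59.95 to 66.79 TPM (median 60.7) in the controls and from 62.32 to 73.19 TPM (median 67.5) with stearate, a rise of 0.12 (SE 0.0399, limma adjusted p = 0.0402). With single libraries left out ETV4 passed the FDR in 10 of 18 fits. PHLDA1, a pleckstrin homology protein linked to apoptosis and to the restraint of receptor signaling, had means of 79.8 and 83.0 TPM and a log2 difference of 0.06 (95% interval -0.04 to 0.15, limma adjusted p = 0.389).

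DUSP5 and ETV5 were the 2 of 10 genes whose stearate and control samples did not overlap, against 7.79% of tested genes. The median log2 difference over the 10 genes was 0.09, beside 0.06 over all tested genes, of which 66.1% were above 0, so the median of the set stood near that of the transcriptome. With the samples rescaled by size factors from the median of ratios, which brought the median of all genes to 0.01, SPRED1 (0.39, limma adjusted p = 0.0175), ETV5 (0.26, 4.82e-05) and DUSP5 (-0.16, 0.000324) still passed the FDR, as they did with any 1 of the 18 libraries left out. SPRED2 (0.11, limma adjusted p = 0.0764) and ETV4 (0.06, 0.253) no longer passed after rescaling, and DUSP4 then did (-0.14, 0.0142). These samples are bulk RNA, in which fewer cells using a gene and less RNA per cell cannot be told apart.

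**Figure D3:**
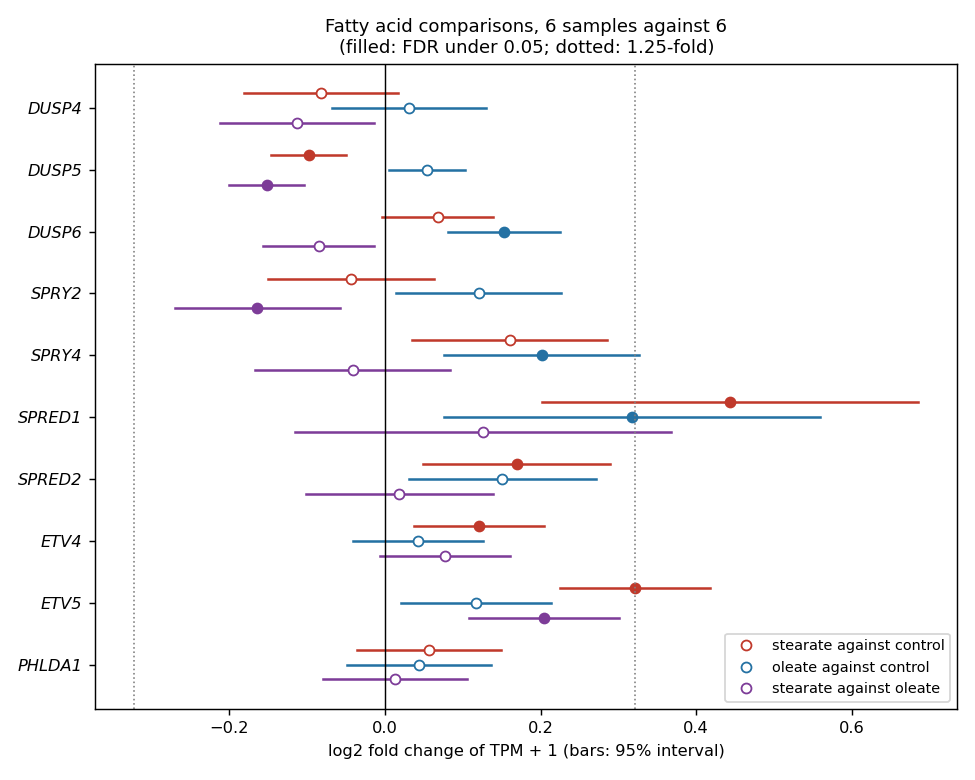
Log2 difference of TPM + 1 (horizontal axis) for each of the 10 genes in the 3 fatty acid comparisons, 6 samples against 6, with 95% intervals as bars; filled points passed the FDR in limma and dotted lines mark the fold threshold. SPRED1 and ETV5 lie farthest right for stearate, DUSP5 lies left of 0 for stearate against both control and oleate, and all 10 points for oleate lie right of 0, of which 6 stayed there after rescaling.

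Oleate was compared with the same 6 controls to ask what the unsaturated fatty acid does. Here DUSP6, SPRY4 and SPRED1 passed the FDR as deposited and 0 of 10 genes passed after rescaling. All 10 log2 differences were above 0, or 6 of 10 after rescaling. By the FDR alone 3 of 10 genes rose, a share near the background of 23.0% of tested genes, and by the call rule 0 of 10 were called in limma, against 6.90%; at an unadjusted p under 0.05 there were 7, against 38.0%.

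DUSP6 was at 196.16, 191.58 and 195.54 TPM in the DMSO controls and at 194.45, 201.52 and 222.21 TPM in the CAY10566 controls. With oleate it reached 224.93, 229.68 and 228.31 TPM with DMSO and 224.9, 216.07 and 211.69 TPM with CAY10566. The third CAY10566 control was the 1 control inside the oleate range, and DUSP6 rose by 0.15 (SE 0.0342, limma adjusted p = 0.00478; exact two-sided permutation p = 0.00649). SPRY4 was at 53.45 to 69.05 TPM (median 57.2) in the controls and at 59.59 to 74.08 TPM (median 66.4) with oleate, a rise of 0.20 (SE 0.0600, limma adjusted p = 0.0203) with overlapping ranges. SPRED1 was at 10.91, 11.13 and 10.68 TPM with oleate and DMSO and at 12.44, 9.23 and 11.22 TPM with oleate and CAY10566, a rise of 0.32 (95% interval 0.08 to 0.56) that lay at the edge of the test (limma adjusted p = 0.0496). With single libraries left out SPRED1 passed in 4 of 18 fits, SPRY4 in 16 and DUSP6 in 18. ETV5, with a mean of 69.4 TPM, had a log2 difference of 0.12 (limma adjusted p = 0.0688), and DUSP5, with a mean of 404.8 TPM, one of 0.05 (limma adjusted p = 0.0929).

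Over all tested genes 72.9% of log2 differences for oleate were above 0 and the median was 0.09, beside 0.12 for the 10 genes. When TPM was rescaled so that the median of all genes came to -0.000957, 6 of the 10 differences were above 0 and none passed the FDR: DUSP6 gave 0.05 (limma adjusted p = 0.168), SPRY4 gave 0.10 (0.113) and SPRED1 gave 0.23 (0.154).

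The stearate and oleate samples were then compared with each other, without the controls. ETV5 was higher and DUSP5 and SPRY2 were lower with stearate, and 0 genes were called by limma against 6.37% of tested genes, with 5 at an unadjusted p under 0.05, against 34.0%. By the FDR alone 1 was higher, against 6.85% of tested genes, and 2 were lower, against 14.3%.

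For ETV5 the lowest stearate sample (72.83 TPM) stood above the highest oleate sample (72.36 TPM), and the log2 difference was 0.20 (SE 0.0461, 95% interval 0.11 to 0.30, limma adjusted p = 0.00388). For DUSP5 the gap was wider, from 378.95 TPM in the highest stearate sample to 392.01 TPM in the lowest oleate sample, with a log2 difference of -0.15 (SE 0.0231, limma adjusted p = 0.000112). SPRY2 was at 12.91, 12.11 and 11.89 TPM with stearate and DMSO, at 10.91, 11.4 and 11.82 TPM with stearate and CAY10566, and at 12.45 to 14.04 TPM in the oleate samples. A single stearate sample, the first with DMSO, reached into the oleate range of SPRY2, and the log2 difference was -0.16 (SE 0.0507, limma adjusted p = 0.0269). ETV5 and DUSP5 did not overlap between these groups, 2 of 10 genes against 10.2% of tested genes. SPRED1 had a log2 difference of 0.13 (95% interval -0.12 to 0.37, limma adjusted p = 0.476) and SPRED2 one of 0.02 (-0.10 to 0.14, limma adjusted p = 0.857), so a difference between the fatty acids in either SPRED gene was not detected in these samples. After rescaling, ETV5 (0.24, limma adjusted p = 8.31e-05), DUSP5 (-0.11, 0.00454) and SPRY2 (-0.13, 0.0353) passed again, and ETV4 then passed as well (0.12, 0.0261).

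Of 11 epithelial and ovarian carcinoma markers, 8 had a mean of at least 1 TPM, whereas MUC16, WT1 and ESR1 did not. The summed level of the 11 was 3134 to 3309 TPM in the controls, 2528 to 2742 TPM with stearate and 2860 to 3198 TPM with oleate. Means of at least 1 TPM were also found for 2 of 6 intestinal, 1 of 7 fibroblast, 0 of 5 leukocyte and 0 of 4 endothelial markers. Every stearate sample lay below all other samples in this sum of the 11. By the FDR 4 of the 8 tested markers were lower with stearate than in the controls, against 5.97% of tested genes, and these were the keratins KRT7, KRT8, KRT18 and KRT19. EPCAM, at 335.2 TPM in the controls and 324.4 with stearate, did not pass, nor did CDH1, WFDC2 or PAX8. The part of this sum in the stearate results was not tested.

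Without the third CAY10566 control, 7 of the 10 genes passed the FDR for stearate against control, against 26.8% of tested genes. The added genes were SPRY4 (0.21, limma adjusted p = 0.00616) and DUSP6 (0.10, 0.0142), and SPRED1 then differed by 0.54 (0.000777). For oleate 6 genes passed without it, against 34.1% of tested genes, the added ones being SPRY2 (0.15, limma adjusted p = 0.0205), SPRED2 (0.18, 0.0227) and ETV5 (0.14, 0.0293). For stearate against oleate 5 passed, against 25% of tested genes, with DUSP4 (-0.11, limma adjusted p = 0.0413) and DUSP6 (-0.09, 0.0238) added.

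CAY10566 was compared with DMSO to ask whether blocking SCD1 moves these genes. In limma 0 of 10 genes were called over all samples, against 0% of tested genes. The same count of 0 held without fatty acid (0% of tested genes), with stearate (0.00725%) and with oleate (0%). At an unadjusted p under 0.05 there was 1 gene over all samples (5.42% of tested genes), 0 without fatty acid (10.1%), 2 with stearate (5.52%) and 1 with oleate (4.72%).

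PHLDA1 was the 1 gene over all samples, with a log2 difference of -0.10 (95% interval -0.16 to -0.03, limma adjusted p = 0.82). It was at 82.75, 80.73 and 81.73 TPM with DMSO alone and at 78.26, 76.23 and 78.82 TPM with CAY10566 alone, without overlap. In the oleate samples it was at 77.94, 92.67 and 90.07 TPM with DMSO and at 77.51, 79.84 and 76.63 TPM with CAY10566, so 1 DMSO sample lay among those with the inhibitor. With stearate the genes at an unadjusted p under 0.05 were ETV5, at -0.16 (95% interval -0.27 to -0.05, limma adjusted p = 0.723), and DUSP5, at -0.07 (-0.14 to -0.01, 0.867). SPRED1, whose stearate samples did not overlap between DMSO and CAY10566, differed by -0.30 (-0.64 to 0.04, 0.889). An exact permutation test of 3 against 3 samples cannot go below p = 0.1, and 4 genes with stearate sat at that floor without overlap (ETV5, DUSP5, SPRED1 and SPRY2), against 11.6% of tested genes without overlap. Without fatty acid 2 genes did (PHLDA1 and SPRY2), against 14.7%, and with oleate 2 (DUSP6 and SPRY4), against 9.88%.

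The stearate response was also taken separately with vehicle and with inhibitor, which contrasts groups of 3 within the fit of all 18 samples. With DMSO, 5 genes passed the FDR, against 14.0% of tested genes, and all rose: SPRED1 by 0.64, ETV5 by 0.45, SPRED2 by 0.27, SPRY4 by 0.26 and ETV4 by 0.19. With CAY10566, 2 genes passed, against 4.75% of tested genes, ETV5 with a rise of 0.19 and DUSP5 with a fall of 0.14. SPRED1 did not pass with CAY10566 (0.25, limma adjusted p = 0.43), nor DUSP5 with DMSO (-0.06, 0.208). The difference between these responses is the interaction, and there 0 of 10 genes were called, against 0.00725% of tested genes, with 2 at an unadjusted p under 0.05, against 9.36%. ETV5 had the lowest adjusted p, with an interaction of -0.26 (95% interval -0.42 to -0.11, limma adjusted p = 0.452), and SPRED1 had the widest interval, at -0.38 (-0.86 to 0.09, 0.578). The sign was negative for 9 of 10 genes, PHLDA1 being the exception at 0.01, and the median was -0.17 beside -0.06 over all genes, of which 36.4% were above 0. Without the third CAY10566 control the calls stayed at 0, while SPRED1 moved to -0.16, SPRY4 from -0.20 to -0.11, DUSP6 from -0.11 to -0.06 and ETV5 to -0.24.

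**Figure D4:**
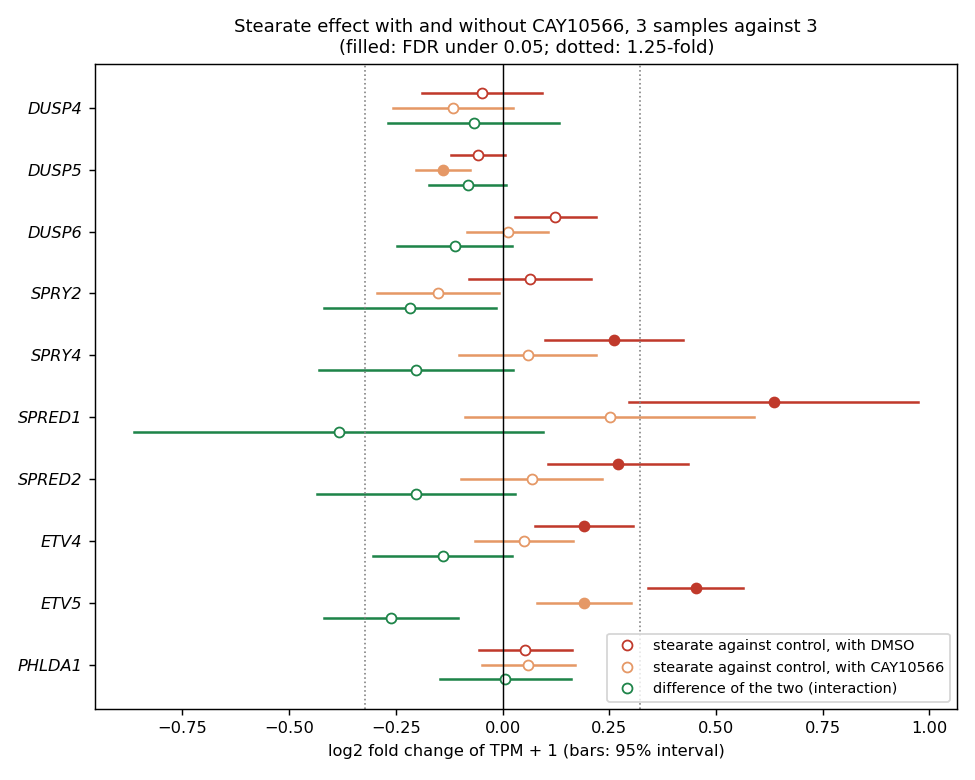
Log2 difference of TPM + 1 between stearate and control (horizontal axis) for the 10 genes with DMSO, with CAY10566, and the difference between these responses, 3 samples a condition; bars are 95% intervals, filled points passed the FDR in limma and dotted lines mark the fold threshold. With DMSO 5 genes are filled, with CAY10566 2 genes are filled, and no interaction is filled although 9 of the 10 lie left of 0.

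The oleate response gave the same layout. With DMSO, 4 genes passed the FDR, against 24.2% of tested genes: SPRY4 rose by 0.34, SPRED2 by 0.25, DUSP6 by 0.23 and ETV5 by 0.18. With CAY10566, 0 of 10 genes passed in limma, against 0.109% of tested genes, and 0 had an unadjusted p under 0.05, against 13.4%. The interaction gave 0 calls (0% of tested genes) and 2 genes at an unadjusted p under 0.05 (10.3% of tested genes), SPRY4 at -0.28 (95% interval -0.51 to -0.06, limma adjusted p = 0.449) and DUSP6 at -0.15 (-0.28 to -0.01, 0.465). All 10 oleate interactions were below 0, with a median of -0.11 beside -0.05 over all genes, of which 38.7% were above 0, and 9 were below 0 after rescaling. Without the third CAY10566 control 8 were, SPRED1 turning to 0.14 and DUSP5 to 0.01, and DUSP6 moved to -0.09 and SPRY4 to -0.19. Both interactions share the same control samples.

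Other genes of the pathway were taken from lists written from general knowledge. Over all tested genes, 13.5% rose and 5.97% fell with stearate by the FDR, 23.0% rose and 372 of 13789 genes fell with oleate, and 6.85% were higher and 14.3% lower with stearate than with oleate, and the counts of each list stand beside these shares. After rescaling, 7.92% were higher and 10.2% lower with stearate, 9.07% higher and 9.12% lower with oleate, and 10.4% higher and 11.5% lower with stearate than with oleate. Among 6 tested of 7 further dual-specificity phosphatases, 0 passed the FDR for stearate against control, 2 rose with oleate (DUSP1 by 0.16 and DUSP7 by 0.13) and 3 were lower with stearate than with oleate. Those 3 were DUSP1 (-0.21, limma adjusted p = 0.00578), DUSP7 (-0.23, 0.000784) and DUSP9 (-0.25, 0.0465), on the same side as DUSP5. After rescaling, 2 of the 6 passed for stearate against control, both lower, 0 passed for oleate, and 2 were lower with stearate than with oleate. Of 5 tested of 6 further Sprouty, SPRED, PEA3 and PHLDA genes, ETV1, the remaining PEA3 factor, was called for stearate. ETV1 was at 7.29 ± 0.85 TPM (SD, n = 6) in the controls, 11.1 ± 3.10 with stearate and 7.12 ± 1.28 with oleate. It rose by 0.52 against control (limma adjusted p = 0.0137) and was higher by 0.55 than with oleate (0.00768). In the DMSO samples alone ETV1 had a log2 difference of 0.50 against control (limma adjusted p = 0.0912) and in the CAY10566 samples alone one of 0.53 (0.139), and neither passed. All 3 PEA3 genes passed the FDR for stearate against control over both, though ETV4 did not after rescaling. PHLDA2, a relative of PHLDA1, fell by 0.23 with oleate (limma adjusted p = 0.0044).

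Within the 17 listed genes of the cascade, from adaptors such as GRB2 to the kinases, 4 rose and 0 fell with stearate (13.5% and 5.97% of all tested genes), and 9 rose and 2 fell with oleate (23.0% and 372 of the 13789). Of 14 negative regulators of RAS and ERK, 2 rose and 1 fell with stearate (13.5% and 5.97% of all tested genes) and 8 rose with oleate (23.0%). Those called with oleate, against 6.46% of all tested genes called higher, were CBL (0.40), RASA2 (0.38), RASAL2 (0.37) and the neurofibromin gene NF1 (0.35). ERRFI1, the ERK-induced inhibitor of the EGF receptor, was at 1122 ± 52.0 TPM in the controls, 936.7 ± 32.2 with stearate and 1256 ± 52.2 with oleate. It was lower by 0.42 with stearate than with oleate (log2 difference -0.42, limma adjusted p = 2.80e-08), with RASAL2 the other call (-0.36). After rescaling, the cascade counts became 2 higher and 0 lower for stearate and 5 higher and 3 lower for oleate. Those of the negative regulators became 1 higher and 2 lower for stearate and 4 higher for oleate. Their balance for stearate turned, as did that of all tested genes (7.92% higher and 10.2% lower after rescaling).

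Of 24 tested of 25 further genes listed as induced by ERK signaling, 8 rose and 4 fell with stearate (13.5% and 5.97% of all tested genes), and 11 rose and 3 fell with oleate (23.0% and 372 of the 13789). With stearate 9 were higher and 9 lower than with oleate (6.85% and 14.3%). EGR1, an immediate early transcription factor, changed by the widest margin, from 19.3 ± 1.03 TPM in the controls to 42.3 ± 5.15 with stearate and 24.2 ± 2.24 with oleate. Its log2 difference was 1.08 for stearate (limma adjusted p = 8.71e-09) and 0.78 for stearate against oleate (2.18e-07). FOS (0.50), the secreted peptide gene VGF (0.38) and BCL2L11 (0.41) were also called for stearate. BCL2L11 encodes the cell death protein BIM and is better known as held down by ERK. It is nonetheless counted among the 8 genes of this list that rose. Against oleate, stearate samples had more VGF (0.59) and less HMGA2 (-0.47) and KLF6 (-0.44), both genes of transcription regulators. After rescaling, the counts became 6 higher and 7 lower for stearate and 5 higher and 5 lower for oleate. All tested genes were then also near balance, at 7.92% higher and 10.2% lower for stearate and 9.07% and 9.12% for oleate. No single direction held for these genes, nor for the background.

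The last list held 10 genes: RSK, MSK and MNK kinases and ELK factors, which are substrates of ERK, and SRF. Of these, 1 rose with stearate (13.5% of all tested genes), 4 rose with oleate (23.0%) and 2 were lower with stearate than with oleate (14.3%). After rescaling, 1 was higher and 1 lower with stearate and 2 were higher with oleate. The kinase gene RPS6KA2 (0.37, limma adjusted p = 0.0159) and ELK4 (0.33, 0.00699) were called for oleate.

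**Figure D5:**
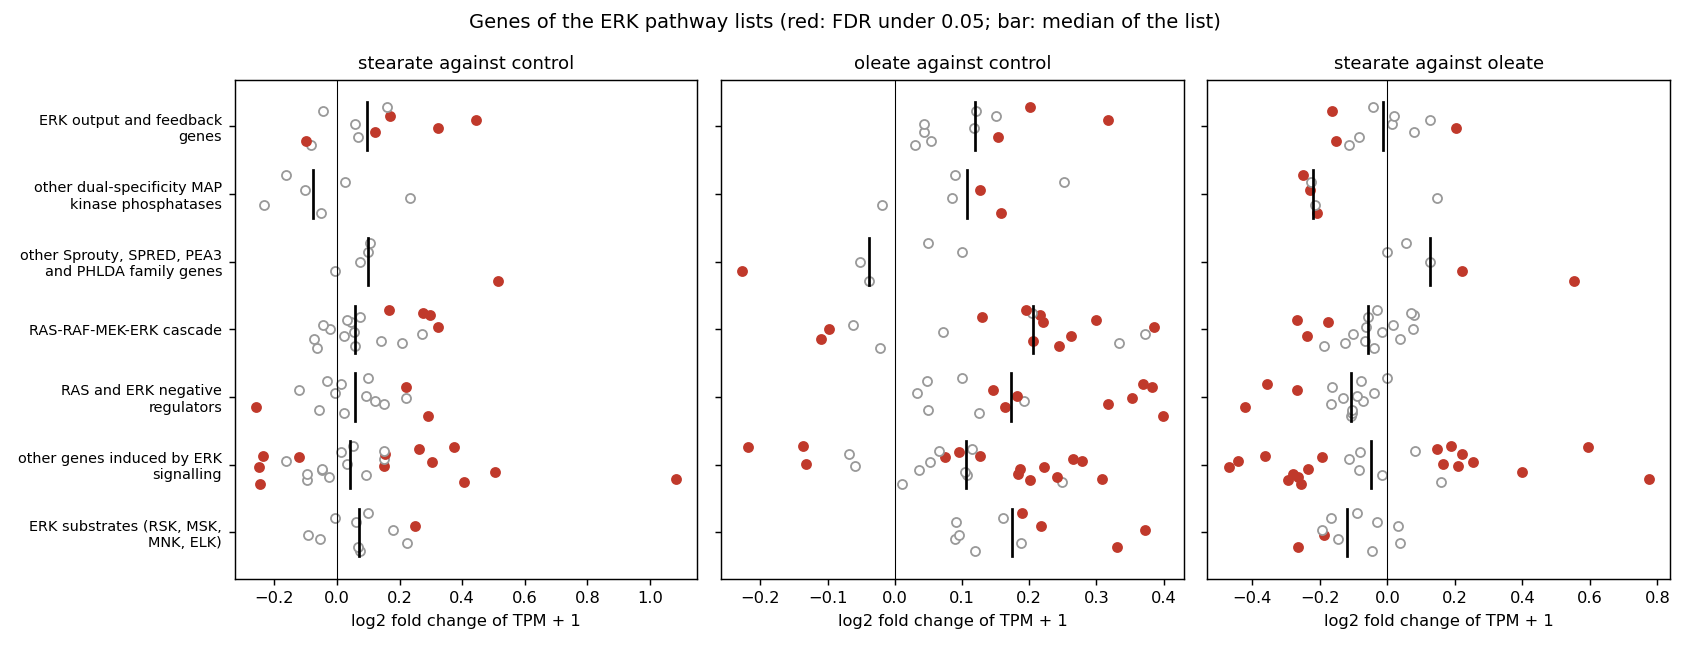
Log2 difference of TPM + 1 (horizontal axis) of every tested gene of the 7 ERK pathway lists (rows) in the 3 fatty acid comparisons (panels); each point is 1 gene, red marks FDR under 0.05 in limma and black bars are list medians. EGR1 is the point at 1.08 in the left panel, and in the middle panel most red points lie right of 0.

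The 10 genes did not move as 1 block across samples. Over 18 samples, which share conditions and a common axis of variation, 18 of the 45 pairs had a Pearson r above 0.5 and 8 were below 0, with a median of 0.43 and a range of -0.45 to 0.89. SPRY4 and SPRED2 (0.89) and DUSP6 and SPRY4 (0.88) were the closest pairs, followed by SPRED2 and ETV5 (0.75) and by DUSP5 and SPRY2 (0.73). With condition means taken out, the median r was 0.50. The same shares over pairs of all tested genes were not computed, so these counts describe the 10 genes only.

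For each gene, the pair of tested genes with the most similar log2 values over the 18 samples was also taken, as a description without a test. ETV5 was closest to SQSTM1 (r = 0.95), the autophagy receptor p62, and to SLC35D1 (0.93), and SPRED1 to the death receptor gene TNFRSF10B (0.86) and to PELI1 (0.86). DUSP5 was closest to SUMO3 (0.94) and WDR74 (0.93), DUSP6 to GNL3L (0.96) and RTL6 (0.96), and DUSP4 to LIMCH1 (0.91) and MICAL2 (0.91). SPRY4 was closest to ERN1 (0.98), which encodes the endoplasmic reticulum stress sensor IRE1, and to AAK1 (0.96), and SPRY2 to GRAMD4 (0.94) and DNAAF5 (0.93). ERN1 passed the FDR for oleate against control (0.31, limma adjusted p = 0.0168) and not for stearate (0.23, 0.0776). SPRY4 itself had an r of 0.89 with the first principal component, and the part of that axis in these matches was not tested. SPRED2 was closest to TMEM140 (0.95) and HIF1A (0.93), ETV4 to ARHGAP1 (0.88) and ZNF112 (0.86), and PHLDA1 to AIFM1 (0.84) and ATG3 (0.81).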

How the data were processed

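The RNA of 18 OVCAR5 samples, 3 replicates in each of 6 conditions, was analyzed. The authors prepared stranded mRNA libraries, sequenced 100 bp paired-end reads, used Trim Galore for trimming, STAR 2.7.1a for alignment to GRCh38 and RSEM for quantification. The values deposited by the authors are TPM per gene, with an equal sum in each sample. TPM keeps no read depth, so depth is unknown and no counting interval is given. The methods name the Ensembl 99 annotation, while 50 identifiers have the older ENSGR form. A single line naming no gene was dropped, and a symbol was matched to 56321 identifiers (93.1%). Gene coordinates are those of GENCODE 44 on GRCh38.

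Values were tested as log2(TPM + 1) with limma 3.58.1 (trend in eBayes) in R 4.3.3 for the 13789 genes averaging 1 TPM or more, and adjusted over all of them by Benjamini-Hochberg. The tool, the FDR of 0.05 and the fold change of 1.25 follow the methods of the study; DMSO and CAY10566 samples were pooled here in each fatty acid group. The pseudocount shrinks fold changes of low transcripts. For CAY10566, 9 samples were set against 9 DMSO samples with a term for the fatty acid, and a model of the 6 conditions gave the contrasts within groups and the interactions. Single genes were also tested by exact permutation of samples. The methods give each sequenced treatment in triplicate, and at least 3 independent experiments for in vitro work in general. They do not say whether the replicates sequenced here were separate cultures, so p-values measure only the spread between these samples. The scripts were tested on simulated data. Figures used matplotlib 3.10.9 in Python 3.11.15.

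The members and the gene lists were chosen with earlier results of these data known. Named genes were the 10 members, the 2 genes most like each of them, and of each other list up to 4 called genes per comparison with the largest change; other named genes of the lists (DUSP1, DUSP7, DUSP9, PHLDA2 and the marker genes) were chosen after their values were seen. SPRED3 is in 2 lists. A gene that the rule would name is not reported here. Alternatives were a pseudocount of 0.1, no filter or one at 5 TPM, no trend, rescaled TPM, a replicate block, CAY10566 as a covariate, the DMSO or CAY10566 samples alone and each sample left out. The other cell lines, palmitate and the protein and viability assays were not analysed here.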

Additional observations from a re-analysis of the deposited data

Results flagged for a closer look

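Within the 3 fatty acid groups of 6, the highest and lowest sample of each of the 10 genes were compared with the others, 30 groups in all, of which chance flags about 1 in 20. In the control group 4 values stood out. The third CAY10566 replicate was high for DUSP4, at 17.38 TPM where the other controls had 14.37 to 15.37, for DUSP6, at 222.21 TPM against 191.58 to 201.52, and for SPRY4, at 69.05 TPM against 53.45 to 57.8. The first CAY10566 replicate was high for ETV4, at 66.79 TPM against 59.95 to 62.34.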

How the results depend on the processing

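For stearate against control, 1 gene was called. A pseudocount of 0.1 gave 2 genes, the DMSO samples alone gave 2 and the CAY10566 samples alone gave 0, and leaving out single libraries gave 1 to 2. By the FDR alone 5 genes passed, which became 3 with no filter on TPM, 3 without the trend and 2 with the CAY10566 samples alone. Leaving out single libraries gave 3 to 7. It was 3 (DUSP5, SPRED1 and ETV5) without any of the 3 DMSO controls, the second CAY10566 control, the first or second stearate+DMSO sample or the third stearate+CAY10566 sample, and 7 without the third CAY10566 control.

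For oleate against control, 0 genes were called in the limma fit, which became 1 with a pseudocount of 0.1, 1 with the DMSO samples alone and 0 to 1 with single libraries left out. By the FDR alone 3 passed, which became 1 with no filter, 0 after rescaling and 0 with the CAY10566 samples alone. Leaving out libraries gave 1 to 6: DUSP6 alone passed without the second DMSO control or the third oleate+DMSO sample, 5 genes without the first stearate+DMSO sample and 6 without the third CAY10566 control. For stearate against oleate, 3 genes passed the FDR, which became 1 with the CAY10566 samples alone and 2 to 5 with libraries left out. The calls for CAY10566 and the interactions were 0 in every alternative run. The contrasts with DMSO or CAY10566 samples alone compare fewer samples within the same fit, and other causes were not tested.

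Replicate numbers did not pair the samples: deviations from the condition means of same-numbered samples correlated at -0.18 to 0.10 (median 0.01) over 45 pairs, and 5 of 18 samples correlated best with their own number. With the replicate block, 4 genes passed the FDR for stearate against control, SPRED2 having an adjusted p of 0.0600 in limma, and 3 in each of the other fatty acid comparisons.

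Of 2250 alternative values for the 10 genes, 63 lost and 17 gained the FDR threshold and 0 changed sign while past it. Only results past the FDR in the main fit could lose it, so the 2250 is not the base of the 63. SPRED1 for oleate against control lost it in 20 of 27 alternatives. For stearate against control SPRED2 lost it in 15 of 27, ETV4 in 12, DUSP5 and SPRED1 in 1 each and ETV5 in 0. The count by the FDR alone was chosen after seeing the data. With depth unknown, small changes in low transcripts such as SPRED1 have only the replicate spread as a measure of error.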
